A study of Homo sapiens with 8 samples.

Results

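RMRP and RPPH1 are the RNA subunits of RNase MRP and RNase P, and each is counted in 1 row of a small RNA count table of 2962 gene rows. Those 2 rows were followed by name through all 8 libraries and set beside rows of precursor and mature tRNA and of mature rRNA. The cells were HEK293, a human embryonic kidney line, collected 48 h after Lipofectamine RNAiMax transfection with a synthetic RNA at 50 nM. The 4 tDR libraries received a copy of the 3′ fragment of tRNA-Asp-GTC, a kind of molecule called a tRNA-derived RNA (tDR). The 4 scramble libraries received a scrambled control mimic, so both groups carried lipid and a foreign RNA. Total RNA from TRIzol was made into OTTR-seq libraries, a method whose reverse transcriptase joins both adapters while it copies the RNA. No label tells whether the replicates came from separate cultures, and p-values therefore reflect the spread among the 8 libraries, which could be technical. The comparison asks what the fragment does to the small RNAs of these cells.

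RNase P is a ribonucleoprotein enzyme that removes the 5′ leader of precursor tRNAs, and its RNA, RPPH1 (also called H1 RNA), carries the catalytic site. RNase MRP shares most of its protein subunits with RNase P and cuts the precursor of the large rRNAs in the spacer that separates 18S rRNA from 5.8S and 28S rRNA. In budding yeast that cut sets the 5′ end of the main form of 5.8S rRNA. Both human RNAs are made by RNA polymerase III from promoters that lie upstream of the gene, and inherited changes in RMRP cause cartilage-hair hypoplasia, a disorder of skeletal growth and immunity.

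RMRP lies on chromosome 9 at 35657751 to 35658018 on the minus strand (GRCh38, GENCODE release 29), 272 bases from the start of the protein-coding gene CCDC107, which runs the other way. A further annotated gene, also named RMRP, lies within it at 35657754 to 35658017 on the same strand. Which of these entries the RMRP row counts, and how shared reads were handled, is not known. RPPH1 lies on chromosome 14 at 20343075 to 20343407 on the minus strand, 175 bases from PARP2, also on the opposite strand. RPPH1 sits inside the annotated non-coding gene AL355075.4 on the same strand, so reads of the 2 genes cannot be told apart there. The sequences are shown because the comparison of the 2 rows needs their reads to be separable. In the GENCODE transcripts, given 5′ to 3′ as DNA letters, capitals mark the stretch found in both RNAs by a search for shared words of 8 bases.
RMRP: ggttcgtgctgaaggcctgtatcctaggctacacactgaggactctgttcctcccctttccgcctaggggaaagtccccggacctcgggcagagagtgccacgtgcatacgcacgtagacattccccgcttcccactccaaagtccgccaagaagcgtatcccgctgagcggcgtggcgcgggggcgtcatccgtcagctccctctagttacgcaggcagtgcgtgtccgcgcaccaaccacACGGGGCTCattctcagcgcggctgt
RPPH1 (first 300 of 333 bases): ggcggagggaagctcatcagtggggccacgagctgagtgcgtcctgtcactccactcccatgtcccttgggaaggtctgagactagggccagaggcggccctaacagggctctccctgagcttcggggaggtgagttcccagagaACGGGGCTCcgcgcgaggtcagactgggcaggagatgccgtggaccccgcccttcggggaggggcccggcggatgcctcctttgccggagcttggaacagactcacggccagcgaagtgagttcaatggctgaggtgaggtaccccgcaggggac
The only shared stretch of 8 or more bases was 9 bases long, at positions 243 to 251 of RMRP and 146 to 154 of RPPH1, counted from each 5′ end. A read that matches one of them exactly over more than 9 bases therefore does not match the other. The longest exact stretch shared with an annotated pseudogene copy was 16 bases for RMRP (RMRPP5) and 18 bases for RPPH1 (RPPH1-3P). No row of the table carried a pseudogene name of either gene.

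Counts summed over gene rows lay between 6910186 and 8007025 in the tDR libraries and between 4016295 and 10246336 in the scramble libraries, with scramble library 3 the shallowest. The transfection labels were checked with the row scr2, whose name no label explains: it held 7.37 to 34.7 counts per 1000000 counts of all gene rows (CPM) in the tDR libraries and 3535 to 5679 CPM in the scramble libraries. The identity of the cells rests on the labels, since small RNA rows were the only ones analysed here. Many rows hold near-equal counts in every library, and all 5 copies of 18S rRNA, for example, form 1 such set. Rows were compared in this way only within a class of RNA, such as 18S rRNA. RMRP and RPPH1 belong to none of these classes, so rows with counts near-equal to theirs were not searched for. With each set counted once, library sums were 2496256 to 3065892 in the tDR libraries and 1465795 to 3860157 in the scramble libraries. All CPM values rest on the full sums, to which every row of a set adds its counts. Class totals that count a set once are therefore not shares of all reads.

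RMRP was higher in the tDR libraries. It was counted 705, 676, 731 and 602 times in tDR libraries 1 to 4, against 572, 664, 265 and 657 times in scramble libraries 1 to 4. Scaled to CPM with TMM library factors, this came to 96.0, 105, 102 and 84.0 CPM in tDR libraries 1 to 4 and to 72.6, 62.9, 59.5 and 57.2 CPM in scramble libraries 1 to 4. Every tDR library lay above every scramble library, and the lowest tDR value exceeded the highest scramble value by 11.4 CPM. The means were 96.8 ± 9.31 CPM in the tDR libraries and 63.0 ± 6.79 CPM in the scramble libraries (SD, n = 4 each). The log2 fold change was 0.62 (SE 0.14, 95% interval 0.32 to 0.92), which is 1.53-fold with an interval of 1.25- to 1.89-fold. It passed the quasi-likelihood test of edgeR, adjusted by Benjamini-Hochberg over all tested rows (adjusted p = 0.0119). RMRP was 1 of 118 rows called among 1761 tested, a background of 6.70%, of which 94 rows (5.34%) were higher and 24 rows (1.36%) lower in the tDR libraries. The split moved with the scaling, to 54 higher and 39 lower on total counts and to 157 higher and 1 lower with factors from microRNAs alone. Leaving out a library gave 52 to 117 higher and 3 to 47 lower, with 3 lower without tDR library 4, 47 lower without tDR library 1 and 52 higher without scramble library 2. Groups that did not overlap were found in 137 rows (7.78%) with tDR above scramble and in 97 rows (5.51%) with tDR below it. The libraries give relative amounts in a bulk culture, so more RMRP per cell, more cells with RMRP and less of the other RNAs cannot be told apart.

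RPPH1 did not pass the test. Its counts were 827, 744, 804 and 668 in tDR libraries 1 to 4, against 855, 1155, 404 and 1074 in scramble libraries 1 to 4. On the TMM scale RPPH1 stood at 113, 116, 112 and 93.2 CPM in tDR libraries 1 to 4 and at 109, 109, 90.7 and 93.5 CPM in scramble libraries 1 to 4. The groups overlapped: tDR library 4 lay among the scramble libraries, and scramble libraries 1 and 2 were close to the tDR libraries. The means were 108 ± 10.3 CPM in the tDR libraries and 101 ± 9.84 CPM in the scramble libraries (SD, n = 4 each). The log2 fold change of 0.11 (SE 0.14) had an edgeR adjusted p of 0.764, and its 95% interval of -0.19 to 0.40 spans 0.876- to 1.32-fold. A rise of RPPH1 as large as the 1.53-fold of RMRP lies outside that interval.

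**Figure D1:**
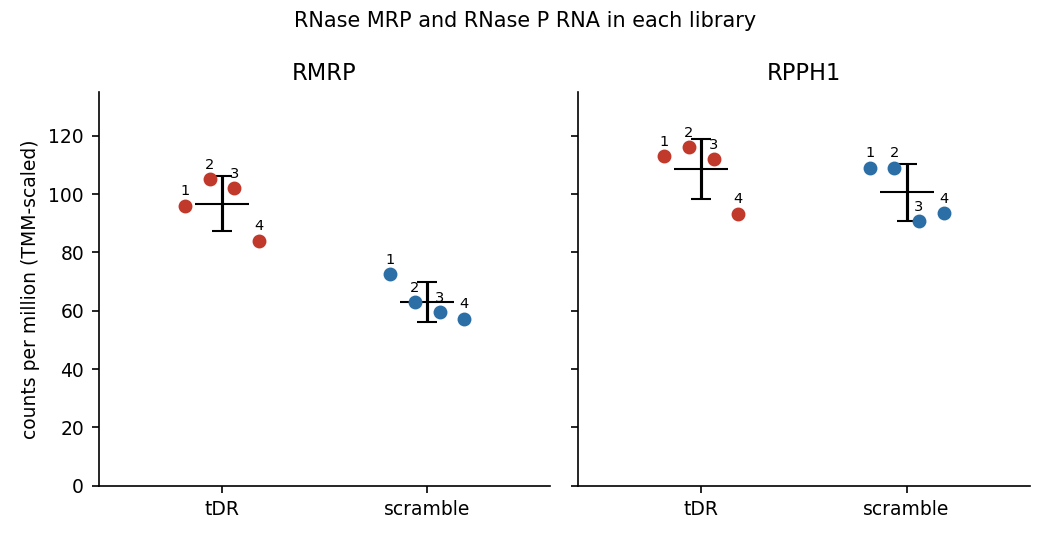
TMM-scaled CPM of RMRP (left) and RPPH1 (right) in each library. Points are libraries, numbered by replicate, and bars give the mean and SD (n = 4). The RMRP values of the tDR libraries, 84.0 to 105 CPM, lie above those of the scramble libraries, 57.2 to 72.6 CPM, while the RPPH1 values of both groups overlap.

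Without any library factor, on plain CPM of the library total, RMRP had 102, 89.1, 91.3 and 84.6 in tDR libraries 1 to 4 and 69.5, 65.0, 66.0 and 64.1 in scramble libraries 1 to 4. The exact binomial 95% intervals, which cover counting error only, began at 78.0 or higher in the tDR libraries and ended at 75.4 or lower in the scramble libraries. The 2 groups' intervals for RMRP therefore did not touch. For RPPH1 the same values were 119.7, 98.1, 100.4 and 93.9 in the tDR libraries and 104, 113, 101 and 105 in the scramble libraries, with intervals that overlapped between the groups. In edgeR on this scale RMRP kept its direction and was not called (log2 fold change 0.47, adjusted p = 0.0737). Total-count scaling also moved the median over all rows to -0.13, against 0.02 with TMM. Measured against that median, RMRP stood at 0.60 under both scalings, and at 0.58 when the factors came from microRNAs alone. RPPH1 stood at 0.087, 0.089 and 0.07 above the median under TMM, total counts and microRNA scaling. A change of library factors shifts all rows by nearly the same amount. Values relative to the median therefore stay close by construction and are no separate support.

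The share of RMRP in the summed counts of RMRP and RPPH1 compares the 2 RNAs within a library and needs no scaling. It was 46.0, 47.6, 47.6 and 47.4% in tDR libraries 1 to 4, against 40.1, 36.5, 39.6 and 38.0% in scramble libraries 1 to 4. All 4 tDR libraries lay above all 4 scramble libraries, with means of 47.2 ± 0.769% in the tDR libraries and 38.5 ± 1.64% in the scramble libraries (SD, n = 4 each). Each share rests on 1270 to 1535 counts in the tDR libraries and on 669 to 1819 in the scramble libraries. The exact binomial 95% intervals ran from 43.5 to 50.2% over the tDR libraries and from 34.3 to 43.4% over the scramble libraries. The spread within a group was not detectably larger than counting error: a chi-square test of the 2 rows over the 4 libraries gave p = 0.783 among the tDR libraries and p = 0.174 among the scramble libraries. Expressed as a log2 ratio of RMRP to RPPH1, the groups stood at -0.16 ± 0.045 in the tDR libraries and -0.67 ± 0.10 in the scramble libraries, a difference of 0.51 or 1.42-fold. The exact two-sided permutation test gave p = 0.0286, the smallest that 4 against 4 libraries allow. Adjusted over the 13 totals and ratios tested here it was 0.124, which does not pass 0.05. Even the smallest possible p passes this adjustment only where many of the 13 tests share it.

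**Figure D2:**
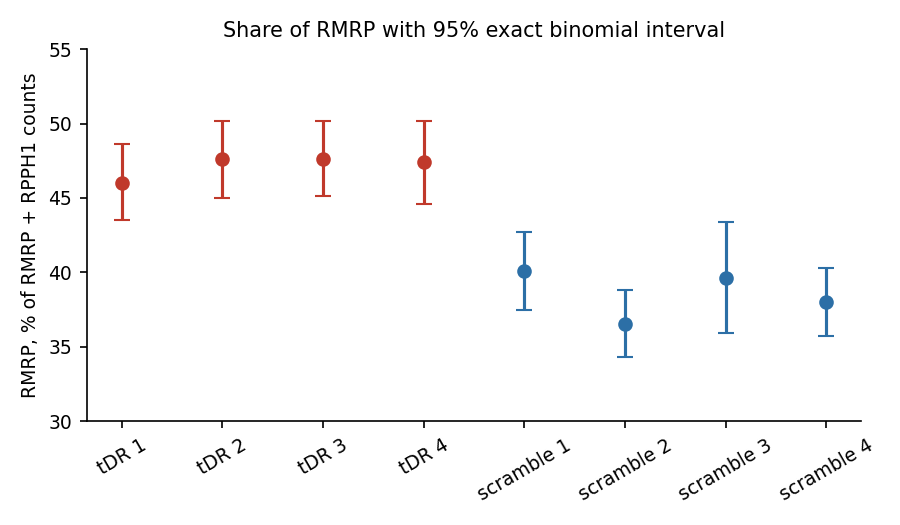
RMRP counts as a percentage of RMRP plus RPPH1 counts in each library, with exact binomial 95% intervals (the axis begins at 30%). The tDR libraries lie between 46.0 and 47.6% and the scramble libraries between 36.5 and 40.1%.

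Both RNAs took a small part of the counts, with group means from 63.0 to 108 CPM, although most tested rows were lower. By mean CPM, RPPH1 ranked at 370 and RMRP at 420 of the 1761 tested rows. Levels of different genes were compared per kilobase, with RefSeq lengths of 270 bases for RMRP and 341 bases for RPPH1. Per kilobase RMRP stood at 358 CPM and RPPH1 at 318 CPM in the tDR libraries, and RMRP at 234 CPM and RPPH1 at 295 CPM in the scramble libraries. The order of their levels per kilobase thus differed between the groups. In counts RPPH1 stood above RMRP in all 8 libraries (RMRP share 36.5 to 47.6%), so that order rests on the division by length. Whether reads of these RNAs scale with length was not tested. The ratio of RMRP to RPPH1 per kilobase was 1.08, 1.15, 1.15 and 1.14 in tDR libraries 1 to 4 and 0.845, 0.726, 0.828 and 0.773 in scramble libraries 1 to 4. For scale, RN7SK, the RNA that holds the elongation factor P-TEFb inactive and is of similar length, stood at 998 CPM per kilobase in the tDR libraries and 968 in the scramble libraries. The table gives reads per row and does not separate whole RNAs from fragments, so these are levels of reads rather than of intact enzyme RNA.

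The rRNAs that descend from the precursor cut by RNase MRP were summed per library, each set of near-equal copies counted once. The rows used are named for the mature rRNAs, and no total of the precursor or its spacer was taken. Counts per row do not show whether a read came from whole rRNA, a fragment or the precursor. 28S rRNA, the main RNA of the large ribosomal subunit, held 31472, 57290, 43114 and 39522 CPM in tDR libraries 1 to 4 and 34194, 26895, 26269 and 25663 CPM in scramble libraries 1 to 4. Scramble library 1 lay above tDR library 1, and the other tDR libraries lay above all scramble libraries. 18S rRNA, the RNA of the small subunit, held 33892, 47763, 43519 and 40080 CPM in tDR libraries 1 to 4 and 39973, 33044, 33138 and 30446 CPM in scramble libraries 1 to 4. Here too tDR library 1 fell within the range of the scramble libraries. 5.8S rRNA held 6526, 7601, 7465 and 6626 CPM in tDR libraries 1 to 4 and 8004, 6784, 6840 and 7170 CPM in scramble libraries 1 to 4, with groups that overlapped. The log2 differences were 0.58 for 28S, 0.27 for 18S and -0.03 for 5.8S, with exact permutation p of 0.0571, 0.0571 and 0.743 and adjusted p over the 13 tests of 0.124, 0.124 and 0.805. Summed, the 45S-derived rRNAs held 91218 ± 16993 CPM in the tDR libraries and 69605 ± 8515 CPM in the scramble libraries (SD, n = 4 each, log2 difference 0.38, exact permutation p = 0.0571, adjusted p = 0.124).

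RMRP was then read against these rRNAs within each library. Per 1000 counts of 5.8S rRNA there were 14.7, 13.9, 13.6 and 12.7 counts of RMRP in tDR libraries 1 to 4 and 9.07, 9.28, 8.70 and 7.98 in scramble libraries 1 to 4. The groups did not overlap, and the tDR libraries were 1.57-fold higher (log2 difference 0.65, exact permutation p = 0.0286, adjusted p = 0.124 over the 13 tests). Per 100000 counts of all 45S-derived rRNA there were 134, 93.5, 108 and 97.4 counts of RMRP in tDR libraries 1 to 4 and 88.4, 94.3, 89.8 and 90.4 in scramble libraries 1 to 4. On this ratio tDR library 2, the library with the most 28S rRNA, fell within the range of the scramble libraries, and the log2 difference was 0.24 (exact permutation p = 0.0571, adjusted p = 0.124). Without tDR library 1, which had the highest ratio, it was 0.13. 5S rRNA, which comes from a separate RNA polymerase III transcript, held 43120 ± 5445 CPM in the tDR libraries and 45098 ± 2870 CPM in the scramble libraries (SD, n = 4 each, log2 difference -0.071, exact permutation p = 0.571). In the edgeR fit all 5 rows of 28S rRNA, which are 1 set of reads, were called higher, 0 of 5 rows of 18S rRNA were called (all 5, again 1 set of reads, had an unadjusted p below 0.05, and neither DESeq2 nor limma-voom called any), and 1 of 17 tested rows of 5.8S rRNA was called lower. The most abundant rows had log2 fold changes of 0.60 (RNA28SN4, SE 0.16, edgeR adjusted p = 0.0233), 0.27 (RNA18SN2, SE 0.13, edgeR adjusted p = 0.226) and -0.01 (RNA5-8SN2, SE 0.12, edgeR adjusted p = 0.976). The call of 28S rRNA was lost without tDR library 2 or without scramble library 2, 3 or 4 (log2 fold change of RNA28SN4 0.44, 0.56, 0.54 and 0.54, edgeR adjusted p = 0.0912, 0.0871, 0.0803 and 0.111). With each set of near-equal rows counted once RNA28SN4 was not called either (0.66, edgeR adjusted p = 0.071), nor with microRNA factors (0.92, edgeR adjusted p = 0.065). The lower call among the 5.8S rows was absent from 6 of the 8 fits that leave out a library. Of 107 tested rows of 5S rRNA, which form 79 sets of reads, 14 were called higher and 3 lower, beside 5.34% higher and 1.36% lower over all rows, with a median of -0.079 against 0.02. With each set counted once, 9 of 79 were called higher and 0 lower. The lower calls went to 0 without tDR library 4, scramble library 1 or scramble library 4, to 1 without scramble library 2 and to 5 without tDR library 2. Without scramble library 2 the calls in both directions were 11 in place of 17. The most abundant 5S row, RNA5SP202, stood at -0.076 (SE 0.13, edgeR adjusted p = 0.819).

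**Figure D3:**
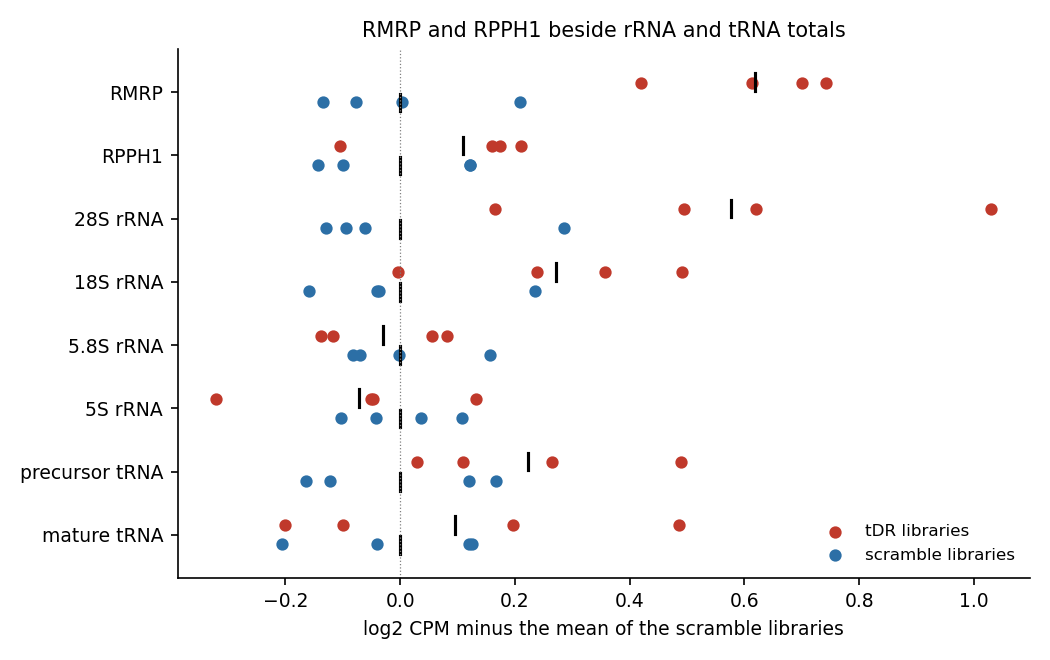
log2 CPM of RMRP, RPPH1 and the rRNA and tRNA totals in each library, as the difference from the mean of the scramble libraries. Points are libraries and vertical ticks the group means. RMRP is the row in which the groups do not overlap, and its mean shift of 0.62 stands beside 0.58 for 28S rRNA and -0.03 for 5.8S rRNA.

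Precursor tRNAs are the substrate class of RNase P, and rows named for a single tRNA locus were taken as precursors. Counts per row do not show whether those reads still hold the 5′ leader. Precursor rows were rare in these libraries. The 262 precursor rows took between 0.0432 and 0.0598% of the counts in the tDR libraries and between 0.0405 and 0.0558% in the scramble libraries. With near-equal loci counted once, the precursor total was 389, 411, 535 and 458 CPM in tDR libraries 1 to 4 and 339.9, 428, 414 and 350.1 CPM in scramble libraries 1 to 4. Rows within 3 counts of each other were taken as near-equal. Low-count loci of different tRNAs, such as tRNA-SeC-TCA-1-1 and tRNA-Thr-AGT-1-1, were therefore treated as near-equal too. The groups overlapped, since tDR libraries 1 and 2 fell at or below scramble libraries 2 and 3. The log2 difference was 0.22 (exact permutation p = 0.171, adjusted p = 0.318). It was 0.23 with all rows summed, 0.073 on total counts, 0.57 with microRNA factors, 0.021 on the deposited signal and 0.13 without tDR library 3. Of 78 precursor rows with enough counts to test, edgeR called 0, with a median log2 fold change of 0.13 against 0.02 over all rows; 9 had an unadjusted p below 0.05, limma-voom called 0 and the DESeq2 Wald test 1. Without tDR library 1, edgeR called 2. The most abundant precursor row, tRNA-Lys-TTT-6-1, had 144 ± 12.1 CPM in the tDR libraries and 117 ± 35.3 CPM in the scramble libraries (SD, n = 4 each, log2 fold change 0.30, edgeR adjusted p = 0.36).

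Read against the precursor and mature tRNA rows, RPPH1 showed no difference that passed. Per 100 precursor counts there were 29, 28.2, 20.9 and 20.4 counts of RPPH1 in tDR libraries 1 to 4 and 31.9, 25.6, 21.9 and 26.7 in scramble libraries 1 to 4. The tDR libraries split, with libraries 1 and 2 above libraries 3 and 4, and the log2 difference between the groups was -0.11 (exact permutation p = 0.6, adjusted p = 0.709). Mature tRNA, the product class, held 136383, 127290, 204890 and 167528 CPM in tDR libraries 1 to 4 and 159394, 158922, 126819 and 142249 CPM in scramble libraries 1 to 4. The groups overlapped, with tDR library 3 the highest and scramble library 3 the lowest, and the log2 difference was 0.096 (exact permutation p = 0.571). Per 100000 mature tRNA counts there were 82.6, 91.1, 54.6 and 55.6 counts of RPPH1 in tDR libraries 1 to 4 and 68.1, 68.9, 71.5 and 65.7 in scramble libraries 1 to 4. The same split appeared: tDR libraries 1 and 2 lay above all scramble libraries and tDR libraries 3 and 4 below all of them, and the means differed by a log2 of 0.013 (exact permutation p = 0.914). The split depended on the scaling of tRNA rows. On the deposited signal, whose library factors differ between tRNA rows and the rest, the ratio per 100000 was 74.6, 80.2, 80.3 and 67.9 in tDR libraries 1 to 4 and 66.8, 70.5, 64.6 and 52.0 in scramble libraries 1 to 4. There the tDR libraries did not split, tDR library 4 lay below scramble library 2, and the log2 difference was 0.26 (adjusted p = 0.106, exact permutation test). There were 2.85, 3.23, 2.61 and 2.73 precursor counts per 1000 mature counts in tDR libraries 1 to 4 and 2.13, 2.70, 3.26 and 2.46 in scramble libraries 1 to 4, a log2 difference of 0.13 (exact permutation p = 0.4). Of 217 tested mature tRNA rows 1 was called higher and 0 lower, beside 6.70% called over all rows, with a median of 0.13. The count rests on the full set of libraries: 6 of the 8 fits that leave out a library called 0, and those without tDR library 1 or 2 called 2. In that class the most abundant row was tRNA-Asp-GTC-2. This row, from the tRNA family of the supplied fragment, was not called (log2 fold change 0.11, edgeR adjusted p = 0.757). Whether reads of the supplied fragment itself entered this row or the mature tRNA total of the tDR libraries was not tested.

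By amino acid, the differences of the precursor sums lay on both sides of 0, and 0 of 22 isotypes passed the exact permutation test after adjustment over the isotypes (adjusted p from 0.629 to 1). With 4 libraries against 4 the exact p cannot go below 0.0286, which passes adjustment over 22 isotypes only where many share it. The smallest exact permutation p before adjustment was 0.0857, for Gly. The isotypes with the highest log2 differences were Cys, Gln and SeC (selenocysteine), at 0.76, 0.63 and 0.60. Precursors of tRNA-Cys had 37, 63, 110 and 106 counts in tDR libraries 1 to 4 and 36, 101, 31 and 50 in scramble libraries 1 to 4, with scramble library 2 close to tDR libraries 3 and 4 in raw counts. Scramble library 2 was deeper, at 10208695 counts against 8007025 and 7115041 in tDR libraries 3 and 4. Scaled, these precursors had 11.2 ± 4.82 CPM in the tDR libraries and 6.36 ± 2.44 CPM in the scramble libraries. Those of tRNA-Gln had 5.29 ± 1.53 CPM in the tDR libraries and 3.63 ± 1.74 CPM in the scramble libraries, and those of tRNA-SeC 0.784 ± 0.333 CPM in the tDR libraries and 0.494 ± 0.184 CPM in the scramble libraries (SD, n = 4 each). The lowest differences were those of Met, Val and Arg, at -0.33, -0.19 and -0.14. Precursors of elongator tRNA-Met had 46, 40, 66 and 19 counts in tDR libraries 1 to 4 and 61, 71, 29 and 81 in scramble libraries 1 to 4, with tDR library 4 the lowest. Lys was the most abundant isotype, with 177 ± 18.6 CPM in the tDR libraries and 146 ± 36.7 CPM in the scramble libraries, followed by Asp with 60.7 ± 12.2 CPM in the tDR libraries and 53.2 ± 9.66 CPM in the scramble libraries (SD, n = 4 each).

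**Figure D4:**
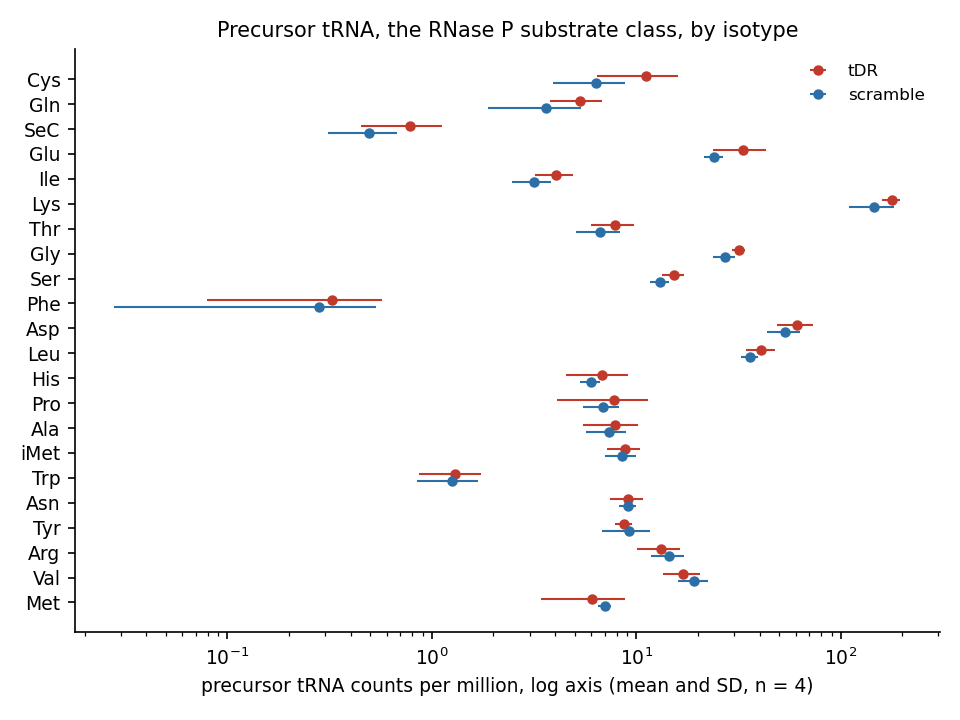
Precursor tRNA CPM by isotype, on a log axis, as mean and SD of 4 libraries, with tDR above scramble in each row and isotypes ordered by their log2 difference. The error bars of the groups overlap in each of the 22 isotypes, from Cys (0.76) at the top to Met (-0.33) at the bottom.

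Other RNAs that act on the rRNA precursor were read as a list of 14 snoRNA rows. Of these, 14 were tested and edgeR called 0 higher and 0 lower, with a median log2 fold change of 0.17 against 0.02 over all rows. At an unadjusted p below 0.05 there was 1, SNORD14B, and DESeq2 and limma-voom called 0. U3, the snoRNA of the early 18S cleavages, was counted in 5 rows that share reads, and its most abundant row SNORD3A had 549 ± 78.0 CPM in the tDR libraries and 468 ± 99.0 CPM in the scramble libraries (SD, n = 4 each, log2 fold change 0.23, edgeR adjusted p = 0.477). U8 (SNORD118), which is needed for 5.8S and 28S rRNA, had 322 ± 88.7 CPM in the tDR libraries and 411 ± 20 CPM in the scramble libraries (log2 fold change -0.35, edgeR adjusted p = 0.258). U13 (SNORD13), which guides acetylation of 18S rRNA, stood at a log2 fold change of -0.20 (edgeR adjusted p = 0.556). The rows of U14, which binds the 18S part of the precursor, ranged from 0.0048 for SNORD14C to 0.35 for SNORD14B (edgeR adjusted p = 0.99 and 0.185). U17, an H/ACA snoRNA of 18S processing, had 0.27 for SNORA73A and 0.10 for SNORA73B (edgeR adjusted p = 0.351 and 0.83). The value of RMRP, 0.62, lay above that of each of these 14 rows; the difference between them was not tested.

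RMRP and RPPH1 belong to the RNA polymerase III genes whose promoters lie upstream of the transcribed part, and the values of that list were uneven. Of 14 tested rows 2 were called higher, RMRP and RNY4, and 0 lower, beside 5.34% higher and 1.36% lower over all rows, with a median of 0.03. The DESeq2 Wald test called 3 higher and 1 lower, and on total counts 1 was called higher and 1 lower. RNY4, a Y RNA bound by the Ro60 protein, had 821 ± 60.8 CPM in the tDR libraries and 484 ± 44.9 CPM in the scramble libraries (SD, n = 4 each, log2 fold change 0.76, SE 0.15, edgeR adjusted p = 0.0028). The other Y RNA genes stood at 0.33 (RNY1), 0.016 (RNY3) and 0.23 (RNY5), with edgeR adjusted p of 0.211, 0.966 and 0.408. RNY1 was called in 3 alternatives, by the DESeq2 Wald test (adjusted p = 0.0495) and by limma on the deposited signal plus 1 or 0.5 (adjusted p = 0.0364 and 0.0369). RN7SK stood at 0.044 and tRNA-SeC-TCA-1, the tRNA that reads UGA as selenocysteine, at 0.12 (edgeR adjusted p = 0.908 and 0.784). The main U6 spliceosomal row, RNU6-1, which shares reads with pseudogene copies, stood at -0.08 (edgeR adjusted p = 0.83). RNU6ATAC, the U6 counterpart of the minor spliceosome, had 27.2 ± 2.31 CPM in the tDR libraries and 38.1 ± 3.55 CPM in the scramble libraries (SD, n = 4 each), for a log2 fold change of -0.48 (edgeR adjusted p = 0.0662). It was called in 7 of the 21 alternatives, the DESeq2 Wald test among them. The precursor row tRNA-SeC-TCA-1-1, with 2 to 9 counts a library, was not tested.

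Rows were ranked by how closely their log2 CPM followed that of RMRP over the 8 libraries, among 1220 rows with a mean count of at least 20 and with near-equal rows taken once. The 5 closest were RNU1-19P, RNVU1-8, RNU1-136P, RNU1-67P and RNU1-63P, with Pearson r of 0.97, 0.968, 0.966, 0.958 and 0.955. These are variant or pseudogene copies of U1, the small nuclear RNA that recognises 5′ splice sites, and their log2 fold changes were 0.82, 0.76, 0.66, 0.47 and 0.77 (edgeR adjusted p = 0.000698, 0.0525, 0.00678, 0.0399 and 0.00219). The rows were picked for following RMRP over both groups, so a group difference like that of RMRP was built into the choice. Their adjusted p are therefore no separate evidence. RNU1-67P was not called in 6 of the 8 fits that leave out a library (all but those without tDR library 3 or scramble library 1; edgeR adjusted p up to 0.114). On total counts RNU1-67P and RNU1-136P were not called (0.33 and 0.52, edgeR adjusted p = 0.185 and 0.0678), and RNVU1-8 was called in 8 of 12 alternatives that keep all libraries. With the group means removed, r was 0.92, 0.792, 0.738, 0.677 and 0.65. The closest to RPPH1 were U8.2, SNORD95, SNORD41, SNORD61 and SCARNA13, with r of 0.904, 0.886, 0.854, 0.837 and 0.837. SNORD95, SNORD41 and SNORD61 are C/D box snoRNAs and SCARNA13 is a small Cajal body RNA. Their log2 fold changes were 0.69, 0.15, 0.19, 0.18 and 0.12, and U8.2 rests on 6 to 39 counts a library. RPPH1 ranked at 146 among the rows most like RMRP, with r = 0.671, and at r = 0.858 once the group means were removed. These r values describe 8 libraries that share their scaling, and no p is given for them.

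Across the alternatives RMRP and RPPH1 moved together with the scaling. RMRP was called in 19 of 21 alternatives and RPPH1 in 0, at log2 fold changes of 0.47 to 0.94 for RMRP and -0.037 to 0.43 for RPPH1. Relative to the median of all rows under the same setting, RMRP stood at 0.55 to 0.67 and RPPH1 at 0.03 to 0.16. Where settings differ only in library factors, such values stay close by construction.

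**Figure D5:**
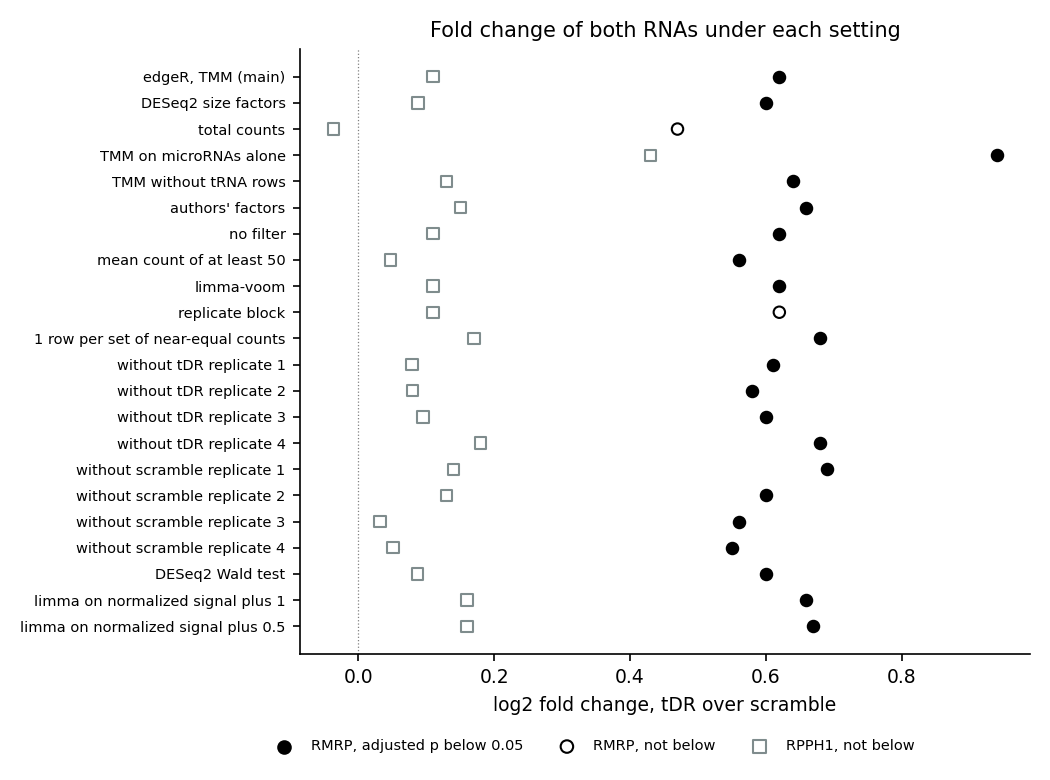
log2 fold change of RMRP (circles) and RPPH1 (squares) in the main edgeR fit and under 21 alternatives, with filled symbols where the adjusted p is below 0.05. RMRP lies between 0.47 and 0.94 and is filled except under total counts and the replicate block, while RPPH1 lies between -0.037 and 0.43 and is never filled.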

How the data were processed

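Per the labels, total RNA of HEK293 cells was sequenced with OTTR-seq in 4 tDR and 4 scramble libraries. The submitters' processing notes name hg38 as the genome build; not given in the sources used here: aligner, counter, strand setting, annotation. The authors deposited whole-number counts per small RNA row (2964 rows; scr and scr2, which name no gene, were left out) and a normalized signal. Set against the counts, the deposited signal came out as each count over a library factor, one for tRNA rows and another for the rest.

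The main test was edgeR 4.0.16 in R 4.3.3, with filterByExpr on the groups, TMM and a robust quasi-likelihood fit with no covariate. Benjamini-Hochberg adjustment ran over the 1761 rows tested, 1201 being too low, and calls were made at an adjusted p under 0.05. The SE was derived from the F statistic. For totals, rows within 10% or 3 counts of each other in every library were counted once, for isotypes within the isotype, with 0.5 counts added before the log. Totals and ratios had exact two-sided permutation tests over 70 arrangements, adjusted over 13. Among 12 replicate pairs the smallest chi-square per degree of freedom was 13.2, far from a copied library. The alternatives used DESeq2 1.42.0, limma 3.58.1, other scalings and filters, and each library left out. The tests were checked on simulated data. Named were the members, the listed snoRNA and RNA polymerase III genes, the most abundant row of each class, the 5 rows most like each member, and the 3 highest and 3 lowest isotypes. Members and lists were chosen with earlier results of these data known.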

Additional observations from a re-analysis of the deposited data

Results flagged for a closer look

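Of 30 sets of 4 library values examined for a value far from the other 3, 2 held one; chance alone gives about 1 in 20. The RMRP share of RMRP plus RPPH1 counts was 46.0% in tDR library 1, below the 47.4 to 47.6% of the other tDR libraries, a gap of 0.875 of the group's range. The values of the other tDR libraries lie within the exact binomial 95% interval of library 1, 43.5 to 48.6%. The 28S rRNA total was 34194 CPM in scramble library 1, above the 25663 to 26895 CPM of the other scramble libraries, a gap of 0.856 of the range. Without that library the log2 difference of 28S rRNA was 0.67, against 0.58 with it.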

How the results depend on the processing

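RMRP stayed higher in the tDR libraries under all 21 alternatives and was called in 19; it was not called on total counts (0.47, adjusted p = 0.0737) or with the replicate block (0.62, adjusted p = 0.0812). Leaving out a library gave 0.55 to 0.69. RPPH1 was called in none, at 0.032 to 0.18 with a library left out and -0.037 on total counts. The replicate block lowered the count of called rows to 39 (38 higher and 1 lower), those of 5S rows to 7 and those of the upstream-promoter list to 1. It ended the calls of RNA28SN4 (0.58, edgeR adjusted p = 0.113), RNU1-67P (0.47, 0.172), RNU1-136P (0.66, 0.0689), the 5.8S row and the mature tRNA row. No label says whether same-numbered libraries belong together. Their deviations from the group means correlated at -0.34 to -0.12, a description over all rows that cannot decide this. The count of called rows was 194 with the DESeq2 Wald test, 188 and 187 with limma on the signal plus 1 and plus 0.5, and 65 to 164 with a library left out (65 without scramble library 2, 70 without scramble library 3).

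Some differences that did not pass in the main tests changed sign. On total counts the mature tRNA total stood at -0.053, RNY3 at -0.13, SNORA73B at -0.051, SNORD14C at -0.14, RN7SK at -0.096, SCARNA13 at -0.027, tRNA-Asp-GTC-2 at -0.044 and tRNA-SeC-TCA-1 at -0.0091. With microRNA factors the 5.8S total stood at 0.31, the 5S total at 0.27, RNA5-8SN2 at 0.33, RNU6-1 at 0.23, SNORD13 at 0.12 and RNA5SP202 at 0.26. On the deposited signal the mature tRNA total stood at -0.11, the 5.8S total at 0.018, RPPH1 per precursor at 0.13, tRNA-Asp-GTC-2 at -0.095, tRNA-SeC-TCA-1 at -0.096 and RNA5-8SN2 at 0.036. RNA5-8SN2 was at 0.022 with TMM without tRNA rows and at 0.039 with the authors' factors, an alternative chosen after seeing the data. SNORD14C was at -0.0081 with DESeq2 size factors, -0.0079 with its Wald test and -0.04 at a mean count of at least 50, where RNY3 was at -0.022 and RN7SK at -0.00029. With a library left out the mature total ran from -0.035 to 0.19, the 5.8S total from -0.067 to 0.022, the 5S total from -0.14 to 0.011, RPPH1 per mature tRNA from -0.12 to 0.13, SNORD14C from -0.073 to 0.06, SNORA73B from -0.0079 to 0.19, RN7SK from -0.023 to 0.13, RNU6-1 from -0.18 to 0.0098, RNY3 from -0.074 to 0.076, RNA5-8SN2 from -0.059 to 0.039 and RNA5SP202 from -0.14 to 0.016. The median over all rows moved as well, from 0.02 with TMM to -0.13 on total counts and 0.36 with microRNA factors. The cause of the sign changes was not tested. With 4 libraries against 3 the exact test cannot go below 0.0571, and paired sign flips cannot go below 0.125.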
